A study of Homo sapiens with 12 samples.

Results

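The 10 genes PAEP, DUOX2, DUOXA2, AZGP1, AFP, ALB, APOA1, TTR, FOXA2 and EPCAM encode products of endoderm and of secretory epithelium, and they were followed through RNA sequencing of human stem cell-derived cardiomyocytes. They are 10 of the 60583 gene names in the count table, taken by name. They were chosen from an earlier account of these libraries in which their differences between scaffolds and replicate numbers were known, so those differences are descriptions here. The cells were day 50 cardiomyocytes made from RUES2, an established human embryonic stem cell line with no label of a modified genotype. They were kept for 3 days on an electrospun scaffold of 9.75% PEDOT:PSS/PVA, which conducts electricity and is called PEDOT here, or on one of 8% PVA (polyvinyl alcohol), which does not. Both groups shared the cell line, the culture medium and detachment with trypsin. Each scaffold had 3 biological replicates with 2 technical libraries each, 12 libraries in all, and what separates technical libraries, or whether replicates are separate differentiations, is not stated. All cells come from 1 line.

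Definitive endoderm is the germ layer of liver, gut, lung and thyroid, and the factors of the FOXA and HNF families set up its genes. Fetal liver and yolk sac secrete carrier proteins such as albumin, alpha-fetoprotein, transthyretin and apolipoprotein A-I, while glands and mucosal surfaces secrete lipocalins and make hydrogen peroxide through dual oxidases. Cardiomyocytes come from mesoderm, which arises from the same mesendoderm stage as endoderm in pluripotent cell cultures.

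The libraries held 19.1 to 31.0 M counts each, and 44.5 to 57.5 M once both technical libraries of a replicate were added. Replicate number was a large source of difference: edgeR's quasi-likelihood F test of the number called 31.8% of the 21298 genes tested, or 6776. The technical libraries differed beyond sampling noise in every replicate, where chi-square divided by the number of genes was 5.86 to 14.5 and highest for PVA replicate 3. In PVA replicate 3, MX1, an interferon-induced antiviral protein, had 33.3 CPM (the count scaled to the library total and its TMM factor) in library 1 and 7.65 CPM in library 3.

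The regulators of endoderm were mixed. Of 16 regulators apart from the members, 10 averaged under 0.5 CPM over the 12 libraries. HNF4A, a nuclear receptor of liver and gut, had 0.446 CPM over the libraries of replicate 1, 0.0434 CPM in replicate 2 and 0.0852 CPM in replicate 3. SOX17, a factor of definitive endoderm, had 0.162, 0.109 and 0.218 CPM in the same order of replicate number. The abundant regulators GATA4, at 319 to 365 CPM on PEDOT and 346 to 376 CPM on PVA, and GATA6 are also made by heart muscle. PROX1, a factor of liver and lymphatic vessels that heart muscle also uses, had 120 to 146 CPM on PEDOT and 118 to 147 CPM on PVA. ONECUT1, a factor of liver and pancreas, had 8.74 to 15.4 CPM on PEDOT and 7.22 to 13.2 CPM on PVA, highest in replicate 3. Of the epithelial transcription factors, ELF3 had 23.6, 11.1 and 20.9 CPM in replicates 1, 2 and 3, lowest in replicate 2 as DUOX2 was, while GRHL2 had 2, 4 and 3 counts. Of the 4 most abundant epithelial junction and keratin genes, KRT8, KRT18 and KRT19 were also lowest in replicate 2. SPINT1 was lowest in replicate 1, at 20.7, 50.0 and 49.6 CPM in replicates 1, 2 and 3. The thyroid and lung factor NKX2-1 had 0 counts in all 12 libraries, which allows up to 0.0304, 0.0325 and 0.0284 CPM by a limit of 3 counts in replicates 1, 2 and 3. Cardiomyocyte genes dominated, with TTN, the giant protein titin, at 40986 to 58497 CPM on PEDOT and 33898 to 51916 CPM on PVA. In bulk RNA, fewer cells of a type and less RNA per cell cannot be told apart, so the genes are described here by name and not as a cell type.

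PAEP encodes glycodelin, a lipocalin that endometrial glands secrete. It had 46.0 and 57.6 CPM in the libraries of PEDOT replicate 1, 1.50 and 2.49 CPM in PEDOT replicate 2, and 2.85 and 3.92 CPM in PEDOT replicate 3. On PVA it had 104 and 90.6 CPM in replicate 1, 3.12 and 4.03 CPM in replicate 2, and 6.25 and 6.22 CPM in replicate 3. Replicate 1 was far above the other replicate numbers on both scaffolds, and within each replicate number both PEDOT libraries lay below both PVA libraries. Pooled over scaffolds, the level in replicate 1 was 26.3 times that in replicate 2 (95% interval 23.3 to 29.9) and 15.5 times that in replicate 3 (14.1 to 16.9). These intervals cover counting error only. Replicate number took 94.8% of the variance of log2 CPM over the 12 libraries, the scaffold 4.33% and the technical libraries 0.90%. The log2 difference between PEDOT and PVA was -0.90, -0.88 and -0.87 in replicates 1, 2 and 3.

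DUOX2 and DUOXA2 form a working pair. DUOX2 is a dual oxidase that makes hydrogen peroxide in thyroid, gut and airway epithelium, and DUOXA2 is the maturation factor that brings it to the cell surface. Their genes lie head to head on chromosome 15, DUOX2 at 45092650 to 45114344 on the minus strand and DUOXA2 at 45114326 to 45118421 on the plus strand of hg38, so that their annotated spans overlap by 19 bases. Counting used the strand. The stretch between their RefSeq starts, 153 bases at chr15:45114173-45114325 of GRCh38.p14, is shown on the plus strand because both genes start from it. The capitals mark a TATA box (TATAAA, searched on both strands), 32 to 27 bases before the DUOXA2 start, and 10.7% of all 35116 RefSeq promoter windows of 250 bases hold these letters.

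DUOX2 to DUOXA2: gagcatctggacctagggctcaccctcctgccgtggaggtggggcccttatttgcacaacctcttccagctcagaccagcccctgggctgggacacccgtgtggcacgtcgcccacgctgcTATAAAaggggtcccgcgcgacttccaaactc

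DUOX2 had 40.7 and 53.6 CPM in PEDOT replicate 1, 10.3 and 10.7 CPM in PEDOT replicate 2, and 36.9 and 34.8 CPM in PEDOT replicate 3. On PVA it had 84.9 and 74.6 CPM in replicate 1, 10.4 and 13.6 CPM in replicate 2, and 52.1 and 40.7 CPM in replicate 3. Replicates 1 and 3 were high and replicate 2 low on both scaffolds, and both PEDOT libraries lay below both PVA libraries in replicates 1 and 3 but not in replicate 2. DUOXA2 had 8.13 and 15.3 CPM in PEDOT replicate 1, 1.80 and 3.32 CPM in PEDOT replicate 2, and 7.12 and 6.46 CPM in PEDOT replicate 3. On PVA its values were 16.1 and 15.5 CPM in replicate 1, 2.61 and 3.05 CPM in replicate 2, and 9.69 and 6.65 CPM in replicate 3. DUOXA2 kept the same order of replicate numbers, with overlap of the scaffolds in replicates 2 and 3. The technical libraries of PEDOT replicate 1 stood 0.91 apart on the log2 scale, and technical libraries took 7.88% of the variance of DUOXA2 against 1.71% for DUOX2.

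Per kb of exon, DUOX2 and DUOXA2 were at similar levels. The ratio of DUOX2 to DUOXA2 per kb was 0.836 to 1.49 in the PEDOT libraries and 1.03 to 1.59 in the PVA libraries, and DUOX2 was the higher in 10 of 12. Across the 12 libraries their log2 CPM correlated at Pearson r = 0.97, a description over libraries that share replicate numbers and scaffolds. The paralogs were low. DUOX2 held 97.6% to 99.5% of the counts of DUOX1 and DUOX2 together, and DUOXA2 held 91.6% to 98.7% of those of DUOXA1 and DUOXA2. Of the 15 other genes of the thyroid and dual oxidase system, 11 averaged under 0.5 CPM. TG, the thyroid hormone precursor, had 0.375 to 1.71 CPM on PEDOT and 0.461 to 2.22 CPM on PVA.

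**Figure D1:**
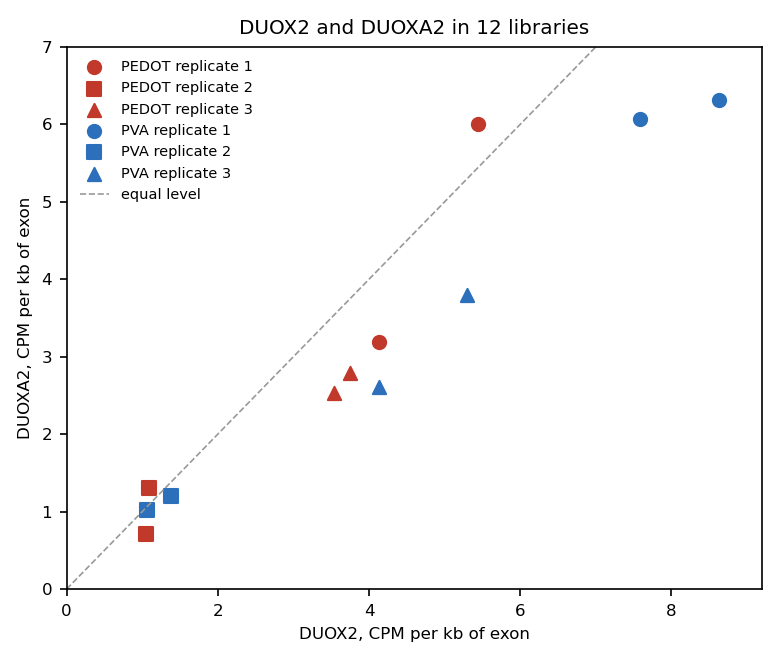
Levels of DUOX2 (x axis) and DUOXA2 (y axis) in CPM per kb of exon in 12 libraries, with PEDOT in red, PVA in blue and the shape giving the replicate number. The points lie near the dashed line of equal level, with replicate 2 near 1 on both axes, and 10 of 12 points lie on the DUOX2 side.

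AZGP1 encodes zinc-alpha-2-glycoprotein, a secreted relative of MHC class I molecules found in glandular fluids. It had 3.68 and 4.60 CPM in PEDOT replicate 1, 1.11 and 2.14 CPM in PEDOT replicate 2, and 2.55 and 3.75 CPM in PEDOT replicate 3. On PVA it had 7.81 and 6.52 CPM in replicate 1, 3.12 and 2.22 CPM in replicate 2, and 6.45 and 4.69 CPM in replicate 3. Both PEDOT libraries lay below both PVA libraries in every replicate number, as for PAEP, and the scaffold took 26.8% of its variance, the highest share among the 10 genes. The log2 difference was -0.79, -0.69 and -0.82 in replicates 1, 2 and 3. PAEP and AZGP1 were the 2 of 8 tested genes with this full separation, against 1.69% of all genes tested, a count not independent of how the genes were proposed.

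**Figure D2:**
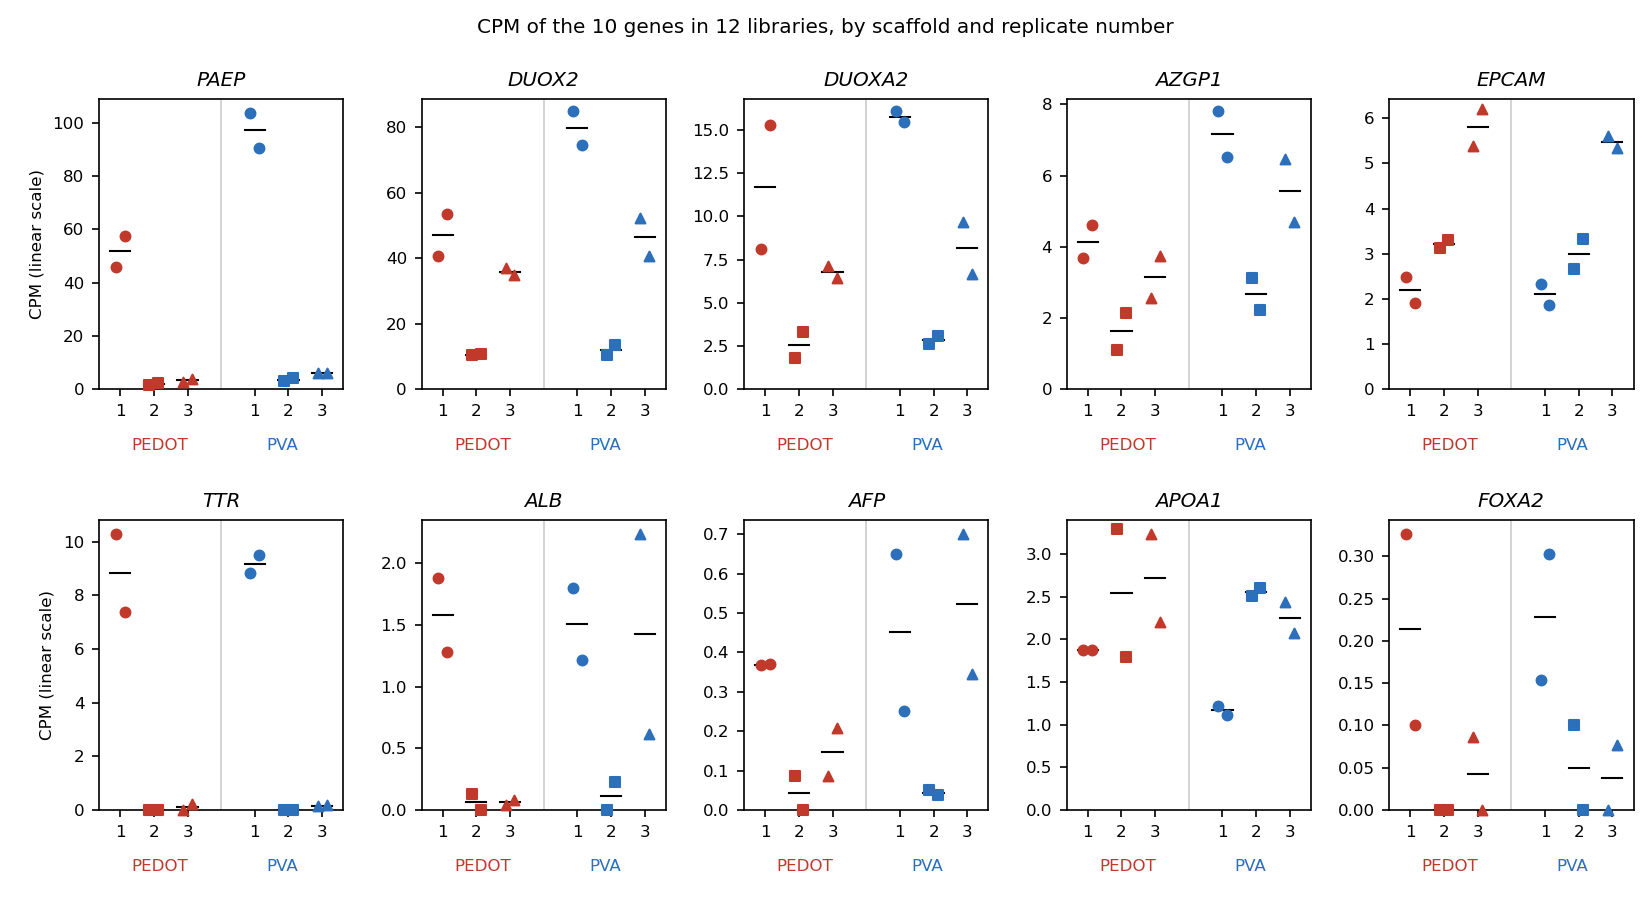
CPM on a linear scale (y axis of each panel) of the 10 genes in each library, by replicate number (x axis) on PEDOT in red and PVA in blue, with 2 points per replicate for the technical libraries and a line for their mean. PAEP and TTR stand high in replicate 1, DUOX2, DUOXA2 and AZGP1 are lowest in replicate 2, and EPCAM is highest in replicate 3.

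The promoters of PAEP, AZGP1, ALB and AFP are shown as the 250 bases before the RefSeq start (GRCh38.p14), since PAEP and AZGP1 were lower on PEDOT in every pair and ALB and AFP are neighbouring genes of 1 family. RefSeq windows matched 6 of the 10 genes, and none is shown for TTR, APOA1, FOXA2 and EPCAM. The PAEP window is chr9:135561506-135561755 on the plus strand, and AZGP1's is chr7:99976032-99976281 on the minus strand. The ALB window is chr4:73404037-73404286 and AFP's is chr4:73435971-73436220, both on the plus strand. Capitals mark matches to 5 short motifs, chosen after the sequences were seen and searched on both strands. The motif of HNF1, a factor of liver genes, was spelled GTTAAT, and the TATA box was spelled as above. The motif of AP-1, a stress- and growth-responsive factor, was spelled TGANTCA. The core of ISRE, the response element of type I interferon, was spelled GAAANNGAA in this search of the windows. The element GAS, through which interferon gamma acts on promoters, was spelled TTCNNNGAA.

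PAEP: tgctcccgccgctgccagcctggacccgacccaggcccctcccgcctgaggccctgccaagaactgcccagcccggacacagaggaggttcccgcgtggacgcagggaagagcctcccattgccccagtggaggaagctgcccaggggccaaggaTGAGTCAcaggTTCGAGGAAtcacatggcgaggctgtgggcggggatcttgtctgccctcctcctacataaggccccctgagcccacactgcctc
AZGP1: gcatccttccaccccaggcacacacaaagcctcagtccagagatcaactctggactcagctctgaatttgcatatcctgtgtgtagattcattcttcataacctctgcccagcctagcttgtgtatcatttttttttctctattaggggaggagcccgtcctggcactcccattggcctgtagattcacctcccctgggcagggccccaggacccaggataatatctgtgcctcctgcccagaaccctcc
ALB: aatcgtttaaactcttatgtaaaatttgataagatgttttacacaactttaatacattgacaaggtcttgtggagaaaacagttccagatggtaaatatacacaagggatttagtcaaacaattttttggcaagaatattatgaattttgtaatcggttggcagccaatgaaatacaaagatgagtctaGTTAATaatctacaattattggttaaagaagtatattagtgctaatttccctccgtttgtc
AFP: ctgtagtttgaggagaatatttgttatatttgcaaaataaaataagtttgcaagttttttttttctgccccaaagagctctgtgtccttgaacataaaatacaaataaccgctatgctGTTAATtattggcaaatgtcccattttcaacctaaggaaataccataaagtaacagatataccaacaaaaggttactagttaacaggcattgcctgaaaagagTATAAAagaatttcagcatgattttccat

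In PAEP the capitals are an AP-1 match, 95 to 89 bases before the start, and a GAS match, 84 to 76 bases before it. ALB and AFP each held 1 HNF1 motif, 61 to 56 bases before the ALB start and 132 to 127 bases before the AFP start, and AFP held a TATA box 29 to 24 bases before its start. The AZGP1 window held none of the 5 strings, and the ISRE letters were in none of the 6 windows. Of all 35116 windows, 6.23% held the HNF1 motif, 6.57% AP-1, 6.88% the ISRE core and 6.57% GAS. A match is a string of letters and not a site shown to be bound.

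TTR encodes transthyretin, which carries thyroid hormone and retinol and is made by liver, yolk sac and choroid plexus. It had 10.3 and 7.39 CPM in PEDOT replicate 1 and 8.85 and 9.50 CPM in PVA replicate 1. In PEDOT replicate 3 it had 0 and 0.208 CPM, and in PVA replicate 3 it had 0.134 and 0.192 CPM. All 4 libraries of replicate 2 had 0 counts. TTR was thus nearly all in replicate 1, where the scaffolds overlapped. Of its 905 counts, 891 were in replicate 1, and the level there was at least 278-fold higher than in replicate 2, taking 3 counts over its 4 libraries as the limit, and 68.1 times that in replicate 3 (95% counting interval 40.4 to 125). TTR did not pass the filter on low counts, which only the replicate 1 sums would have met, so the fits on filtered genes of all 6 sums hold no scaffold difference for it. With every gene that had a count kept, its log2 fold change was -0.10 (SE 0.24) with the block.

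ALB and AFP encode albumin, the main carrier protein of plasma, and alpha-fetoprotein, its fetal relative. The genes lie 9655 bases apart on chromosome 4. ALB had 1.88 and 1.28 CPM in PEDOT replicate 1, 0.128 and 0 CPM in PEDOT replicate 2, and 0.0432 and 0.0834 CPM in PEDOT replicate 3. On PVA it had 1.80 and 1.21 CPM in replicate 1, 0 and 0.226 CPM in replicate 2, and 2.24 and 0.615 CPM in replicate 3. The scaffolds were alike in replicate 1 and apart in replicate 3, where PEDOT had 1 and 2 counts and PVA had 67 and 16. The 67 counts were in PVA replicate 3 library 1, the library of that replicate with the higher MX1 level. In replicate 1 the sums had 6.44 CPM of MX1 on PEDOT and 40.7 CPM on PVA, where ALB was alike. A link of ALB with MX1 was not tested. AFP had 83 counts in all, 0 to 0.370 CPM on PEDOT and 0.0377 to 0.702 CPM on PVA. Its PVA replicate 3 libraries held 21 and 9 counts and its PEDOT replicate 3 libraries 2 and 5.

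FOXA2, the pioneer factor of endoderm, had 27 counts in all, 21 of them in replicate 1. PEDOT libraries had 0 to 8 counts and PVA libraries 0 to 6, and the gene did not pass the filter. The level in replicate 1 was 9.81 times that in replicate 2, with a counting interval of 2.40 to 86.3 around its 2 counts there.

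APOA1 and EPCAM ran the other way across replicate numbers. APOA1, the main protein of high-density lipoprotein, had 1.88 and 1.88 CPM in PEDOT replicate 1, 3.29 and 1.79 CPM in PEDOT replicate 2, and 3.24 and 2.21 CPM in PEDOT replicate 3. On PVA it had 1.23 and 1.11 CPM in replicate 1, 2.51 and 2.60 CPM in replicate 2, and 2.44 and 2.07 CPM in replicate 3. Replicate 1 was the lowest by mean on both scaffolds, and technical libraries took 22.9% of the variance. EPCAM, an adhesion molecule of epithelia that pluripotent cells also carry, had 2.49 and 1.92 CPM in PEDOT replicate 1, 3.12 and 3.32 CPM in PEDOT replicate 2, and 5.40 and 6.21 CPM in PEDOT replicate 3. On PVA it had 2.34 and 1.87 CPM in replicate 1, 2.66 and 3.32 CPM in replicate 2, and 5.61 and 5.34 CPM in replicate 3. EPCAM was highest in replicate 3 on both scaffolds, and replicate number took 94.7% of its variance against 0.53% for the scaffold. Of the 12 other pluripotent stem cell markers, 8 averaged under 0.5 CPM, the factors POU5F1 and NANOG among them with 2 to 6 and 4 to 6 counts per replicate number. The 4 most abundant were TDGF1, a co-receptor of Nodal, LIN28B, an RNA-binding protein, SALL4, a zinc finger factor, and DNMT3B, a DNA methyltransferase. TDGF1 had 12.1, 7.97 and 6.62 CPM in replicates 1, 2 and 3. LIN28B had 5.43, 8.61 and 9.53 CPM and SALL4 2.76, 5.99 and 5.87 CPM, lowest in replicate 1 as EPCAM was, and DNMT3B had 3.67, 3.51 and 3.65 CPM. The replicate number was called for 3 of these 4, against 31.8% of all genes tested, and the part of the 4 in the level of EPCAM was not tested.

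Per kb of exon, PAEP had the highest mean level, at 13.2 ± 19.6 CPM per kb on PEDOT and 24.6 ± 36.7 on PVA (SD, n = 3 each). DUOX2 followed with 3.18 ± 1.93 on PEDOT and 4.72 ± 3.44 on PVA, and DUOXA2 with 2.79 ± 1.86 on PEDOT and 3.52 ± 2.53 on PVA. AZGP1, APOA1, EPCAM and TTR came next with means between 1.15 and 2.00 CPM per kb, and ALB, AFP and FOXA2 were under 0.31 on either scaffold. Neighbours in this order differed by less than the larger of their SDs on both scaffolds, apart from AZGP1 and APOA1 on PEDOT, where APOA1 was the higher. The order also changed between libraries. PAEP exceeded DUOX2 in 8 of 12 libraries, AZGP1 exceeded APOA1 in 6 and TTR exceeded ALB in 5.

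Whether the conductive scaffold changed the 10 genes was asked over 3 against 3 sums of technical libraries. Without the replicate number as a term, edgeR's quasi-likelihood test called 0 of 21298 genes (percent called 0), with 190 at an unadjusted p under 0.05, and DESeq2 called 0 with 126. The 8 genes of the set that passed the filter on low counts were among those not called. PAEP had a mean of 19.2 ± 28.5 CPM on PEDOT and 35.8 ± 53.4 CPM on PVA, a spread set by replicate 1, and a log2 fold change of -0.90 with a standard error of 1.55. None of the 10 genes had 3 PEDOT sums all below or all above the 3 PVA sums, a pattern that 4.6% of the genes tested showed.

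With the replicate number as a block, edgeR called 57 genes, 0.268% of those tested, of which 42, or 0.197%, were lower on PEDOT. PAEP, DUOX2 and AZGP1 were among the 42, and no other member of the set was called. Nothing is read from this share, since the genes were proposed with this contrast known. PAEP had a log2 fold change of -0.89 (SE 0.09, adjusted p = 0.00103 in edgeR), which is 1.86-fold lower on PEDOT. AZGP1 had -0.78 (SE 0.14, edgeR adjusted p = 0.0408) and DUOX2 -0.48 (SE 0.09, edgeR adjusted p = 0.0444). The other members tested were not called, with log2 fold changes of DUOXA2 -0.30 (SE 0.11), AFP -0.91 (SE 0.47), ALB -1.28 (SE 0.56), APOA1 0.28 (SE 0.19) and EPCAM 0.06 (SE 0.15). The 5 genes PAEP, DUOX2, DUOXA2, AZGP1 and AFP were lower on PEDOT in the 3 pairs, as were 15.6% of the genes tested.

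The calls of the 3 genes differed in how far they depended on single libraries. PAEP was called without each of the 12 libraries in turn, with edgeR adjusted p-values of 0.000688 to 0.0177. DUOX2 was called without PEDOT replicate 2 library 2, PVA replicate 1 library 2, PVA replicate 2 library 2 or PVA replicate 3 library 3, and lost its call without any 1 of the other 8, at adjusted p-values of 0.0743 to 0.231. AZGP1 was called without PEDOT replicate 2 library 2 or PVA replicate 3 library 3, and lost its call without any 1 of the other 10, at 0.0523 to 0.149. Its log2 fold change was -1.27 with the lower-numbered libraries alone and -0.31 with the higher-numbered ones, and that of PAEP was -1.14 and -0.66. In the 9 other blocked fits PAEP was called in 8, AZGP1 in 5 and DUOX2 in 4; 1 of the 9, which called all 3, took the 12 technical libraries as samples and so has more samples than biological replicates. PAEP missed the threshold with the higher-numbered libraries alone (edgeR adjusted p = 0.0658). With upper-quartile scaling PAEP was called (0.0142) and AZGP1 (0.145) and DUOX2 (0.224) were not. Without the pair of replicate 2, AZGP1 (0.136) and DUOX2 (0.0754) lost their calls, as DUOX2 did without the pair of replicate 1 (0.154) and AZGP1 without that of replicate 3 (0.0595). The log2 fold change of DUOX2 was -0.32 without replicate 1, and without replicate 3 that of ALB was -0.16, against -1.28 with it.

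**Figure D3:**
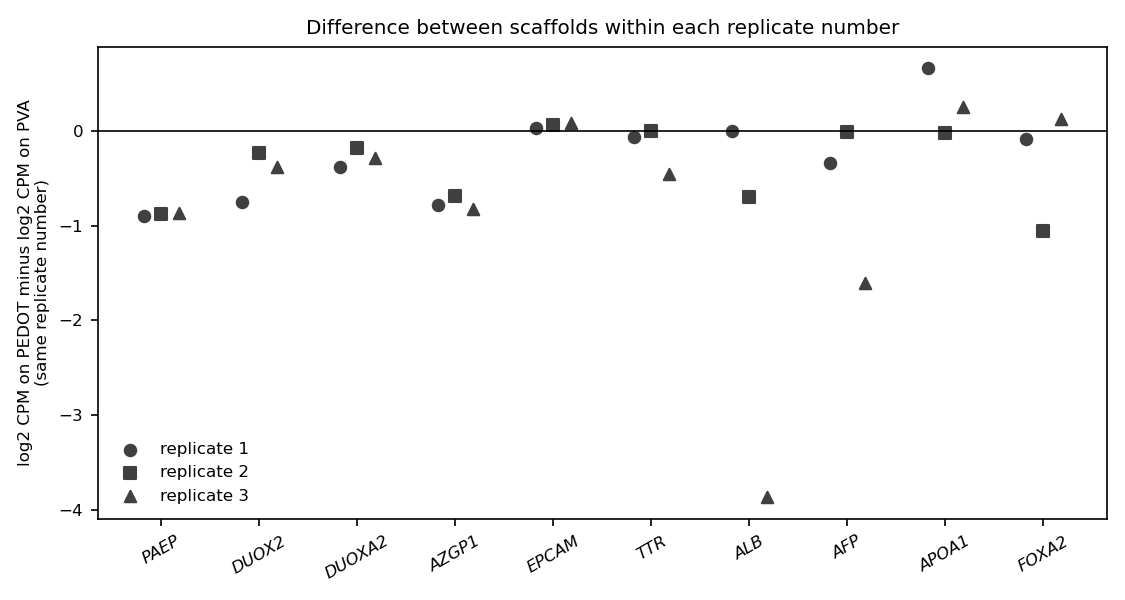
Log2 CPM on PEDOT minus log2 CPM on PVA (y axis) for each of the 10 genes (x axis), 1 point per replicate number on the 6 sums of technical libraries. PAEP and AZGP1 lie between -0.69 and -0.90 in each replicate, DUOX2 between -0.24 and -0.75, EPCAM within 0.09 of 0, and ALB reaches -3.87 in replicate 3.

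The interferon-induced list held most of the other called genes of the lists in the same blocked fit. Of 20 interferon-induced genes, 19 were tested and 10 were called lower on PEDOT and 0 higher, with a median log2 fold change of -0.59 against -0.0037 over all genes. Of all genes tested, 0.197% were called lower on PEDOT. The list was chosen with earlier results of these data known, so its count is a description. OAS1, an antiviral RNA sensor, was at 0.131 to 1.18 CPM on PEDOT and 0.264 to 7.78 CPM on PVA, a log2 fold change of -2.74 with SE 0.27 (adjusted p = 0.00103 in edgeR). MX1 was at 1.92 to 7.16 CPM on PEDOT and 2.49 to 42.6 CPM on PVA, with -2.02 (SE 0.23, edgeR adjusted p = 0.00289). Leaving out 1 library left 2 to 12 of the 19 called lower, with 2 without PEDOT replicate 1 library 3, 2 without PVA replicate 3 library 1 and 6 without PEDOT replicate 1 library 2. The count was 0 with the higher-numbered libraries alone, 5 with the lower-numbered ones and 0 with upper-quartile scaling. The summed level of the list was 295 to 376 CPM on PEDOT and 340 to 650 CPM on PVA. DUOX2, AZGP1 and PAEP were lower on PEDOT, as this list was, and its part in their values was not tested. The log2 difference in replicates 1, 2 and 3 was -2.655, -0.722 and -2.1 for MX1 and -0.751, -0.238 and -0.383 for DUOX2. For PAEP it was -0.903, -0.878 and -0.868, and for AZGP1 -0.786, -0.69 and -0.823, varying less between replicates. The genes with the pattern most like that of DUOX2 over the 12 libraries were C4A, NREP and CD74 (r = 0.993, 0.991 and 0.99). C4A is a complement factor and CD74 the invariant chain of MHC class II.

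The epithelial and endoderm lists had no call between the scaffolds beyond the members, and at 0.268% of all genes called a list of their size would hold few. With members left out, the counts were 0 of 7 endoderm regulators tested, 0 of 9 liver and yolk sac proteins, 0 of 23 epithelial junction and keratin genes, 0 of 6 secretory products, 0 of 7 thyroid and dual oxidase genes, and 0 of 5 lung and gut markers. Without the block the count was 0 for these lists as well. AQP1, a water channel on the choroid plexus list, was the 1 of 5 tested there that was called, higher on PEDOT by 0.40 on the log2 scale with SE 0.08 (adjusted p = 0.0489 in edgeR). MYH7, the slow myosin heavy chain, was the 1 called of 13 cardiomyocyte markers, higher on PEDOT with 0.95 (SE 0.17, edgeR adjusted p = 0.0382). Both calls ended with upper-quartile scaling (adjusted p = 0.205 for each in edgeR), without the pair of replicate 2 (0.333 for AQP1 and 0.312 for MYH7) and with either set of technical libraries alone, and that of MYH7 with DESeq2 and the block (adjusted p = 1.0). AQP1 was called without PEDOT replicate 3 library 3, PVA replicate 1 library 2 or PVA replicate 3 library 1 and lost its call without any 1 of the other 9 libraries, at edgeR adjusted p-values of 0.059 to 0.239. MYH7 was called without PEDOT replicate 2 library 2, PEDOT replicate 3 library 1, PVA replicate 1 library 2 or PVA replicate 3 library 3 and lost its call without any 1 of the other 8, at 0.0542 to 0.193. KRT8 and KRT18, keratins of simple epithelia that early heart muscle also makes, had 622 to 1120 and 161 to 341 CPM on PEDOT and 735 to 1080 and 164 to 333 CPM on PVA.

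Some secreted proteins of the lists, SERPINA1, SPP1 and VTN, shared the high level of replicate 1. SERPINA1, the liver's alpha-1-antitrypsin, had 12.5 and 10.7 CPM in PEDOT replicate 1 and 16.4 and 12.8 CPM in PVA replicate 1, against 0.0502 to 2.44 CPM in the other 8 libraries. SPP1, the secreted phosphoprotein osteopontin, had 24.5 and 24.0 CPM in PEDOT replicate 1 and 33.9 and 27.7 CPM in PVA replicate 1, against 0.175 to 4.91 CPM elsewhere. VTN, the plasma and matrix protein vitronectin, had 8.46 and 9.27 CPM in PEDOT replicate 1 and 8.81 and 8.99 CPM in PVA replicate 1. In replicates 2 and 3 VTN stayed between 0.704 and 5.49 CPM. Other abundant genes of the same lists differed less. MTTP had 5.36, 4.21 and 2.42 CPM in replicates 1, 2 and 3, and SERPIND1 2.81, 1.475 and 2.41 CPM. Of the secretory products CLU had 127, 60.5 and 72.35 CPM in that order. MUC20 had 8.29, 5.76 and 5.92 CPM, and MUC1 2.30, 0.954 and 2.32 CPM. The replicate number was called for SERPINA1 (edgeR adjusted p = 6.88e-09), SPP1 (3.19e-09) and VTN (5.4e-08). Of the liver and yolk sac proteins 5 of 9 tested were called for the replicate number, against 31.8% of all genes tested. Of the 23 on the list, 16 averaged under 0.5 CPM. APOB had 0.801, 0.174 and 0.483 CPM in replicates 1, 2 and 3 and FGB had 10, 0 and 10 counts.

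The same replicate number was called for 4 of 6 secretory products, 12 of 23 epithelial junction and keratin genes, 4 of 7 endoderm regulators, 5 of 5 choroid plexus markers, 10 of 11 mesothelial and epicardial markers, 9 of 9 fibroblast markers and 11 of 13 cardiomyocyte markers, against 31.8% of all genes. It was also called for 15 of 19 interferon-induced genes, 4 of 7 thyroid and dual oxidase genes and 3 of 5 lung and gut markers. The fibroblast list summed to 3414 to 7055 CPM in the libraries of replicate 1, 704 to 990 CPM in replicate 2 and 2827 to 3800 CPM in replicate 3. The cardiomyocyte list summed to 59820 to 70350 CPM in replicate 1, 74120 to 93720 CPM in replicate 2 and 79830 to 89370 CPM in replicate 3. The mesothelial and epicardial list summed to 359 to 403, 236 to 261 and 301 to 374 CPM. Across replicate numbers DUOX2, DUOXA2 and AZGP1 were lowest in replicate 2, as were the sums of the fibroblast and mesothelial lists. The collagen genes COL1A1, COL1A2 and COL3A1 were lowest there too. POSTN of the fibroblast list was highest there, at 15.2, 43.3 and 17.1 CPM in replicates 1, 2 and 3, and so was ITLN1 of the mesothelial list. Interferon-induced MX1 (22.65, 2.755 and 13.5 CPM) and OAS1 (4.16, 0.228 and 2.15 CPM) were lowest in replicate 2, while IFIT1 was highest there. The part of these lists in the levels of the 3 genes was not tested. Between scaffolds the blocked log2 fold change was above 0 for 7 of 9 fibroblast markers tested, with a median of 0.36 and 0 called. It was below 0 for 6 of 11 mesothelial and epicardial markers, with a median of -0.06. The median over all genes tested was -0.0037. The values for DUOX2, DUOXA2 and AZGP1 were -0.48, -0.30 and -0.78, and DUOXA2 was not called. The choroid plexus list summed to 128 to 170, 63.8 to 123 and 108 to 145 CPM, most of it AQP1. Among its other genes PRLR, the prolactin receptor, had 6.19, 0.933 and 2.85 CPM and KL, the co-receptor klotho, 1.13, 0.130 and 0.322 CPM, both highest in replicate 1 as TTR was. SLC4A5, a bicarbonate transporter, had 15.5, 6.08 and 14.7 CPM. KCNJ13 had 1 count, HTR2C 3 and FOLR1 33 in all, and 5 of the 9 genes averaged under 0.5 CPM. OTX2, also of this list, was lowest in replicate 1, opposite to TTR. It had 0.073, 0.37 and 0.38 CPM on PEDOT and 0.087, 0.43 and 0.39 CPM on PVA in replicates 1, 2 and 3. The part of this list in the level of TTR was not tested.

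**Figure D4:**
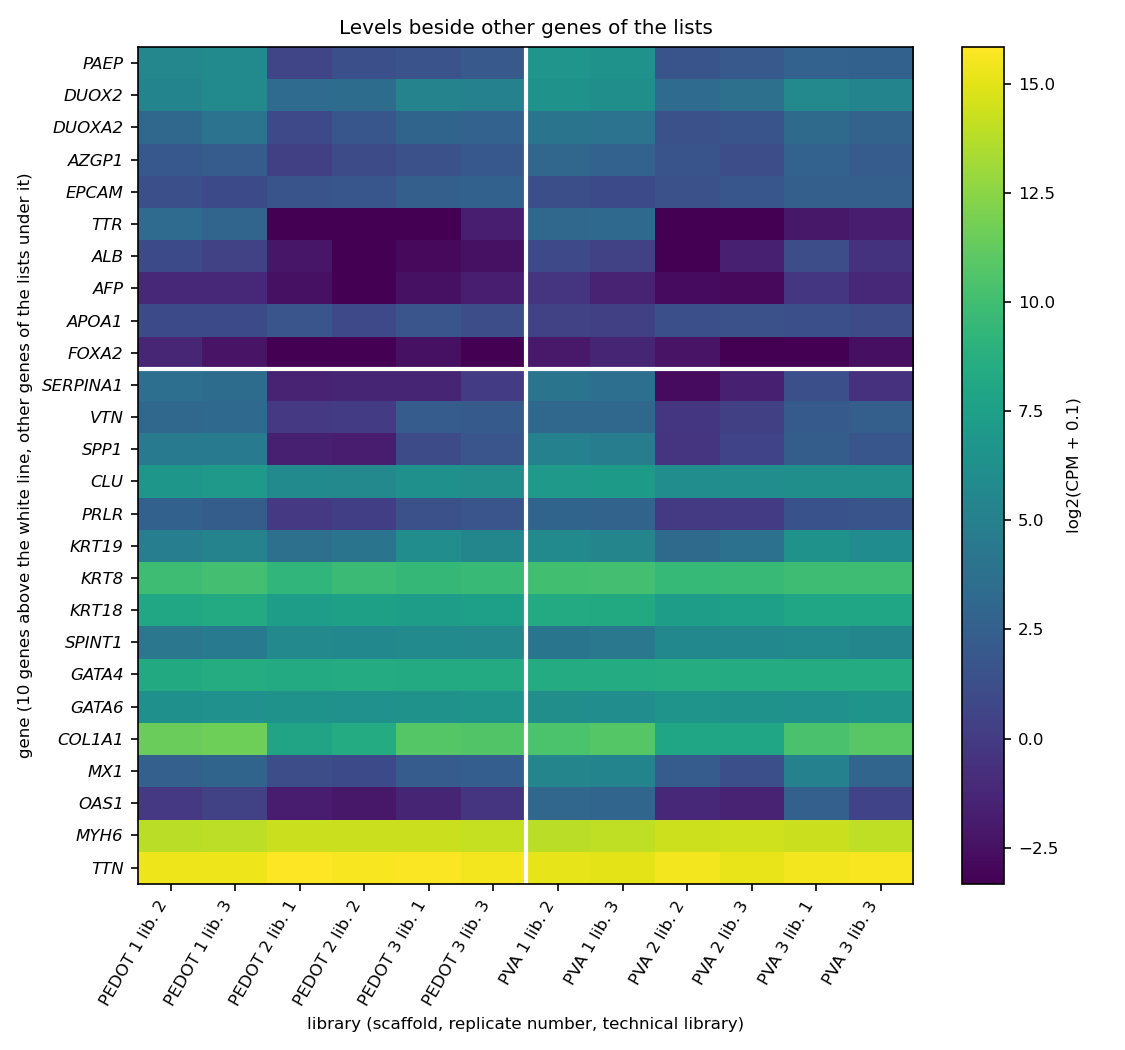
Heat map of log2(CPM + 0.1) in 12 libraries (x axis, PEDOT left and PVA right of the vertical white line) for the 10 genes above the horizontal white line and 16 other genes of the lists under it. TTR, SERPINA1 and SPP1 are brightest in replicate 1, MX1 and OAS1 are bright in PVA replicate 1 and PVA replicate 3 library 1, and TTN and MYH6 are the most abundant.

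The genes whose log2 CPM followed each member most closely, among 15691 genes averaging at least 1 CPM, give a description of these 12 libraries, which share replicate numbers, depth and scaffolds. For PAEP they were PLCB1, RDH10 and MYO1D (r = 0.989, 0.986 and 0.985). For TTR they were GC, the vitamin D carrier of plasma (r = 0.985), CHGA, a protein of hormone granules (r = 0.984), and MYO1D (r = 0.981). GC had 2.76 to 3.47 CPM in PEDOT replicate 1 and 2.38 to 3.03 CPM in PVA replicate 1, and 0.201 CPM at most in the other 8 libraries. CHGA had 44.2 to 45.4 CPM in PEDOT replicate 1 and 43.6 to 46.6 CPM in PVA replicate 1, and 0.960 to 3.00 CPM elsewhere. DUOX2 was followed by C4A, NREP and CD74, DUOXA2 by VWA1, SLIT3 and HLA-E, and AZGP1 by SCARB2, ACPP and PDIA3. AFP was followed by HIVEP3, ZNF805 and USP37, ALB by TAF1D, ETV6 and TUBA4A, APOA1 by NNT-AS1, RBM24 and MPC1, and EPCAM by GMNN, CEBPZOS and RHEX, with r between 0.911 and 0.969. RHEX, a gene of erythroid cells, had 0.504 to 5.88 CPM on PEDOT and 0.556 to 3.91 CPM on PVA, highest in replicate 3 as EPCAM was. FOXA2 was too low for such a comparison.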

How the data were processed

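The deposited file gives unnormalized counts of read pairs for each gene name and each of 12 libraries. Per the file headers, counting used featureCounts 2.0.1, paired-end and reversely stranded, on GENCODE release 33. The submitters' processing notes list STAR, FastQC, edgeR, DESeq2, featureCounts and hg38, while STAR's version is not given in the sources used here. The header's command has no option for multi-mapping reads, so these were not counted, and near-identical copies read low. Exon lengths are those of the table. RNA was ribodepleted total RNA, per the labels.

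The biological replicate was the unit, so the technical libraries were summed to 6 sums. No label says that replicates are separate cultures, so p-values measure the spread between these samples only. The filter was filterByExpr (minimum count 10, minimum total 15) and the scaling TMM. Tests used edgeR 4.0.16 with R 4.3.3 (glmQLFit, glmQLFTest, two-sided, Benjamini-Hochberg over all 21298 genes tested, threshold 0.05). The scaffold was the only term. A standard error is the absolute log2 fold change over the root of the F statistic. CPM is scaled to library totals and TMM factors, with a prior count of 2 on the log2 scale. DESeq2 1.42.0 was an alternative. The procedure was also run on simulated counts. These held no replicate-number effect, so they do not check the fit without the block where that effect is large.

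Replicate numbers are shared between scaffolds. Across genes, departures from the scaffold mean correlated at 0.68, 0.70 and 0.50 between sums with 1 number and at -0.61 to -0.005 between sums with different numbers, so the numbers were taken as pairs and the blocked fit is printed where it changes a call. The pairing comes from the values and not from a label.

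The 10 genes and the 12 gene lists were chosen with earlier results of these data known. Named genes are the 10, the 4 of highest mean CPM in each list, any list gene called for the scaffold with or without the block, and the 3 genes most like each of the 10 with a mean CPM of at least 0.2. A result this rule would name is not reported here. HNF4A, SOX17, GRHL2, ELF3, NKX2-1, APOB, FGB, POU5F1, NANOG, DUOX1, DUOXA1, KCNJ13, HTR2C, OTX2, FOLR1 and ITLN1 were added after their values were seen. Intervals on pooled counts are exact at 95% and cover counting error only. Promoter sequences are RefSeq windows of GRCh38.p14.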

Additional observations from a re-analysis of the deposited data

Results flagged for a closer look

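Of 20 groups of 6 libraries tested (10 genes on each scaffold), 1 held a library far from the others. FOXA2 had 0.327 CPM in PEDOT replicate 1 library 2, on 8 counts, while the next PEDOT library had 3 counts. Chance marks about 1 in 20 groups of independent, normally distributed values. These groups hold technical libraries of the same replicates and low counts, so that rate is not known to hold for them.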

How the results depend on the processing

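Without the replicate block, the count of scaffold calls was 0 among all genes and 0 among the 10 under DESeq2, upper-quartile scaling, every gene with a count and each left-out replicate (0 to 0). With the replicate block it was 57 genes and 3 of the 10. Other blocked settings gave 96 and 3 with DESeq2, 1 and 1 with upper-quartile scaling, 389 and 4 with every gene with a count (ALB added, edgeR adjusted p = 0.00569), 194 and 3 with the 12 libraries as samples, 16 and 2 with the lower-numbered libraries, and 4 and 0 with the higher-numbered libraries. Leaving out replicate pair 1, 2 or 3 gave 170, 22 or 284 genes and 2, 1 or 2 of the 10. Leaving out 1 library with the block, chosen after seeing the data, gave 15, 4, 35, 63, 27 and 39 genes for the PEDOT libraries (replicates 1 to 3, lower number first) and 73, 22, 45, 28, 36 and 63 for the PVA libraries, with 1, 1, 1, 3, 1 and 1 and then 2, 1, 2, 1, 1 and 3 of the 10. The replicate number called 6776 genes and 3020 to 6144 without 1 pair. It called 4971 to 8963 under the other settings.

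Without the block, leaving out 1 replicate turned the direction of 5 genes, none of them called. Each such fit held 1 replicate number on 1 scaffold only. PAEP had 97.5 CPM in the PVA replicate 1 sum, against 3.67 and 6.24 CPM in those of PVA replicates 2 and 3. The log2 fold change ranged from -3.73 to 1.95 for PAEP (1.95 without PVA replicate 1), -1.02 to 0.077 for DUOX2 (0.077 without PVA replicate 1), -0.94 to 0.35 for DUOXA2 (0.35 without PVA replicate 1, 0.071 without PEDOT replicate 2), -0.033 to 0.46 for APOA1 (-0.033 without PVA replicate 1) and -0.41 to 0.52 for EPCAM (-0.41 without PEDOT replicate 3, -0.20 without PVA replicate 1, -0.031 without PVA replicate 2). With the replicate block the higher-numbered libraries gave DUOXA2 0.017. PAEP stayed below 0 with the block in the 12 fits without 1 library and in the 9 other settings. The cause of the turns was not tested. DESeq2 without the block gave PAEP no p-value. Levels moved by less than 1 SD in 60 of 60 comparisons of scaling and technical libraries. FOXA2, AFP and ALB rest on 27, 83 and 250 counts, which limits their precision.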
